A study of Nannochloropsis oceanica with 18 samples.

Results

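At normal light, the OE-labelled strain of Nannochloropsis oceanica, whose genotype label reads NO07G02030-oe, was set against the wild type (WT), with 3 libraries each. These 6 libraries, of 18 in the series, were taken by their genotype and light labels, and every gene in the table entered, plastid and mitochondrial genes included. Of 10493 genes, 9912 passed a filter on low counts and were tested (9858 nuclear, 36 plastid and 18 mitochondrial). All 18 cultures were of strain IMET1, in modified f/2 seawater medium. The OE-labelled group at normal light (NL_OE) and the WT group at normal light (NL_WT) had the same 8 days in shaken flasks at 25 °C, from a starting optical density of 0.5, under about 50 µmol of photons on each square metre in a second. The same 2 strains at about 300 µmol photons (HL_OE and HL_WT) and a knockout-labelled strain at normal light (NL_KO) are used below only where a value needs a second point. The sources used here do not give how the OE-labelled strain was made, from how many clones, or what drives the added gene. The labels give the cell type of every library as Colonial, a word they do not explain, and it was not checked against markers. The labels speak of 3 biological replicates without saying whether these were separate cultures from the start. The spread between libraries on which p-values rest may thus be partly technical. In the main gene fit that spread was estimated over all 18 libraries of the series, not only the 6 compared.

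Nannochloropsis is a single-celled marine alga that stores oil as triacylglycerol. Its plastid and its mitochondrion each keep a small genome, which encodes core subunits of the photosystems, the ATP synthases and the respiratory chain and part of the organelle's own ribosomes. All other proteins come from the nucleus, whose genes appear here as IDs (NO, a number for the ID series, G, and a running number) that the files and the reference table do not pair with names or roles. Nuclear genes are therefore described by their levels, lengths, neighbours and behaviour across libraries, and organelle genes by their known functions.

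NO07G02030, the gene named in the labels, was examined first. It stood at 26.2, 27.2 and 29.5 TPM (a level scaled for gene length and library total) in the NL_OE libraries, against 26.1, 29.0 and 32.3 TPM in the NL_WT libraries. In TPM the groups overlapped, with means of 27.6 ± 1.72 in NL_OE and 29.1 ± 3.11 in NL_WT (SD, n = 3 each). In CPM (counts scaled to the library total and the TMM factor) they did not, with 36.6, 38.6 and 41.1 CPM in NL_OE, against 43.3, 43.4 and 46.7 CPM in NL_WT, so that NL_OE was the lower group. The log2 fold change of NL_OE over NL_WT was -0.20 (SE 0.22, adjusted p = 0.554, edgeR, and 0.0609 with the 6 compared libraries alone), and a two-sided exact permutation test of TPM gave p = 0.7, where 0.1 is the smallest value that 3 against 3 libraries allow. At high light it was not called either, at 36.5 ± 1.75 CPM in HL_OE and 27.4 ± 6.09 CPM in HL_WT (log2 fold change 0.41, adjusted p = 0.155, edgeR). The knockout-labelled NL_KO libraries still had counts for it, at 48.9, 25.0 and 29.0 CPM. The transcript was thus not called higher in the libraries labelled overexpression, nor was it absent from those labelled knockout. Every direction below, and every use of NL_KO, is that of the library label. Of the tested IDs nearest to it, 10 before and 10 after in the ID order, 2 were called, beside 22.3% of all tested genes. NO07G02080 had 159, 175 and 169 CPM in NL_OE, against 53.4, 74.2 and 102 CPM in NL_WT, a log2 fold change of 1.13 (SE 0.32, adjusted p = 0.0186, edgeR). NO07G02120 had 47.8, 53.2 and 52.4 CPM in NL_OE, against 80.2, 75.7 and 64.6 CPM in NL_WT, a log2 fold change of -0.52 (SE 0.16, adjusted p = 0.0317, edgeR). Both calls were lost on leaving out single libraries, NL_WT replicate 1 among them.

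Library totals ran from 17132210 to 18156739 counts in NL_OE and from 16069582 to 16306854 in NL_WT. The groups differed in how alike their libraries were. The biological coefficient of variation was 7.00% in NL_OE and 18.5% in NL_WT, and the pairwise correlations of log2 CPM across genes were 0.995 to 0.997 in NL_OE and 0.969 to 0.988 in NL_WT. The other groups also entered the spread of each gene in the main fit. Their coefficients were 8.35% in HL_OE, 28.2% in HL_WT, 27.5% in NL_KO and 35.0% in the knockout-labelled strain at high light. A range of more than 2-fold among the 3 libraries was found for 45 tested genes in NL_OE and 753 in NL_WT. NL_WT replicate 1 was the WT library farthest from the NL_OE mean in 1397 of the 2215 called genes (63.1%), and NL_WT replicate 3 the nearest in 1414 (63.8%). For named genes whose call was lost without NL_WT replicate 1, that loss is given beside the result. The lengths behind the deposited values set all 6 OE-labelled libraries of the series apart from the other 12, as described below with the genes it touches.

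Against WT, the OE-labelled strain had about as many genes higher as lower. Of the 9912 tested genes, 2215 were called at an adjusted p below 0.05 (22.3%), 1130 higher in NL_OE (11.4%) and 1085 lower (10.9%). At least 2-fold changes were called in 488 genes that were higher (4.92%) and in 382 that were lower (3.85%). Most changes were moderate, with 555 of the higher and 557 of the lower calls between 0.5 and 1 on the log2 scale. Changes of more than 3 on that scale were more often rises, 40 against 24 falls. The 3 libraries of each group did not overlap in CPM in 6236 genes (62.9%), of which 2127 were called (21.5% of the tested genes). Without NL_WT replicate 1 the number of calls fell to 1082, with 591 higher and 491 lower. A fit of the 6 compared libraries alone called 5119.

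The called genes carried a large part of the transcript pool. Genes called higher made up 15.7%, 16.8% and 16.5% of all TPM in the NL_OE libraries, against 7.78%, 8.78% and 9.60% in the NL_WT libraries. Genes called lower held 9.74 ± 0.570% of TPM in NL_OE and 19.2 ± 2.89% in NL_WT (SD, n = 3 each). These shares follow from how the genes were chosen and are given for their size. The tested genes were put in 4 classes of equal size by mean TPM over all 18 libraries. From the scarce to the abundant class, 7.71%, 9.32%, 11.99% and 14.8% were called lower, a rising share. The share of rises had no such order, with 13.9%, 10.9%, 9.24% and 11.6% called higher. Among the 100 most abundant transcripts 12 were called higher and 21 lower, beside 11.4% and 10.9% of all tested genes, so that the number of rises was near the general share. These 100 took 15.4 ± 0.163% of TPM in NL_OE and 18.02 ± 1.395% in NL_WT.

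**Figure D1:**
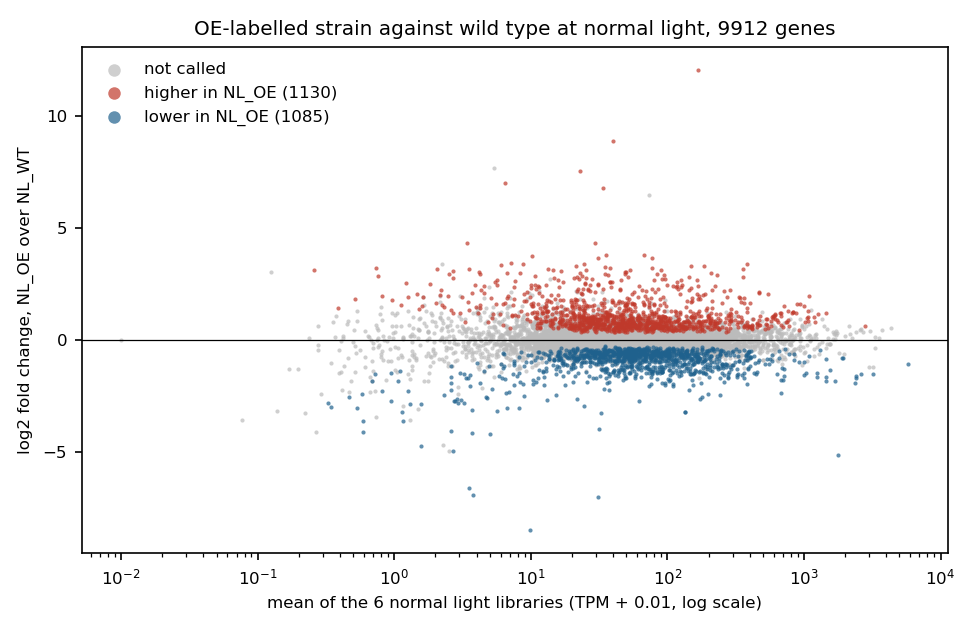
Log2 fold change of NL_OE over NL_WT (vertical axis) against mean abundance (horizontal axis, log scale) for the tested genes, with called genes coloured by direction. The 1130 higher and 1085 lower genes lie over the whole range of abundance, and the falls are denser among abundant transcripts.

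Among abundant transcripts, the 5 largest losses and the 5 largest gains in TPM show where this pool differed. NO09G00450, the most abundant transcript in NL_WT replicates 2 and 3, stood at 3717, 3960.2 and 4220 TPM in NL_OE, against 7334, 6899 and 8660.0 TPM in NL_WT. The groups were well apart, with a log2 fold change of -1.06 (SE 0.23, adjusted p = 0.00505, edgeR). NO18G00330 had 1977, 1379 and 1886 TPM in NL_OE, against 5232, 3951 and 4861 TPM in NL_WT. Its log2 fold change of -1.52 (SE 0.20, adjusted p = 0.000126, edgeR) held in every alternative setting run on it. NO02G05440 had 1149, 931 and 937 TPM in NL_OE, against 5194, 3784 and 2173 TPM in NL_WT, and NO30G00310 had 1213, 929 and 1203 TPM in NL_OE, against 3039, 4166 and 3929 TPM in NL_WT. Both were lower without overlap, by -1.92 (SE 0.55, adjusted p = 0.0211, edgeR) and -1.63 (SE 0.51, adjusted p = 0.0310, edgeR) on the log2 scale, and neither call was stable. That of NO02G05440 was lost without any one of the 3 NL_OE libraries and without NL_WT replicate 1 (-1.54, adjusted p = 0.0976, edgeR). That of NO30G00310 was lost on leaving out any one of the 6 libraries (-1.73 without NL_WT replicate 1, adjusted p = 0.0617, edgeR) and by limma on log2 TPM. The fifth, NO27G01660, rests on 1 library. It had 108, 81.1 and 78.5 TPM in NL_OE, against 9485, 609.8 and 337 TPM in NL_WT, and in NL_WT replicate 1 it was the most abundant transcript of the library. Without that library its log2 fold change was -2.23 and was not called (adjusted p = 0.0761, edgeR), against -5.16 with it.

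The largest gains in TPM came from 2 genes of usual length and 3 short ones. NO06G01110 had 1139, 1274 and 1162 TPM in NL_OE, against 414, 438 and 573 TPM in NL_WT, a log2 fold change of 1.27 (SE 0.32, adjusted p = 0.0110, edgeR). NO09G03110 had 1298, 1499 and 1441 TPM in NL_OE, against 653, 608 and 787 TPM in NL_WT, a log2 fold change of 0.98 (SE 0.21, adjusted p = 0.00389, edgeR). Both were higher in each NL_OE library than in any NL_WT library. The short ones were NO28G00190, NO22G01450 and NO04G03470, for which a comparison of levels is less direct. NO28G00190 had 1767, 1996 and 1932 TPM in NL_OE, against 867, 952 and 1239 TPM in NL_WT, and NO04G03470 had 1524, 1686 and 1544 TPM in NL_OE, against 365, 827 and 548 TPM in NL_WT. Their log2 fold changes from counts were 1.21 (SE 0.16, adjusted p = 0.000135, edgeR) and 1.98 (SE 0.49, adjusted p = 0.00924, edgeR). Both stayed called, at 0.83 and 1.39, with the length correction described below, but NO04G03470 was not called without NL_WT replicate 1 (adjusted p = 0.0506, edgeR). NO22G01450 had 3010.1, 3286 and 3242 TPM in NL_OE, against 2597, 2251 and 2409 TPM in NL_WT, and its log2 fold change of 0.63 (SE 0.18, adjusted p = 0.0234, edgeR) was reduced to 0.32 and not called (adjusted p = 0.249, edgeR) once each library's own lengths entered the fit.

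Short genes stood apart in this comparison. A transcript's effective length is the number of positions at which a fragment of a library can start, so quantification tools set it from the transcript's length and each library's own fragment sizes. Here it was read back from the deposited counts and TPM, relative to the median gene. For the 268 tested genes under 0.1 of the median, the libraries of NL_OE gave 1.44, 1.45 and 1.47 times the series' typical effective length, against 0.772, 0.994 and 0.879 times in NL_WT. All 6 OE-labelled libraries, at both light levels, lay at 1.44 to 1.52, and the other 12 libraries at 0.772 to 1.10. Those 268 genes had a median log2 fold change of 1.37, with 246 positive, 130 called higher and 4 called lower. For the 318 genes between 0.1 and 0.2 of the median gene the median was 0.41, with 61 called higher and 10 lower. In the 4 classes of longer genes the medians lay between -0.047 and -0.00090. The 586 genes under 0.2 are 5.91% of tested genes, but 177 of the 488 that were at least 2-fold higher (36.3%) and 8 of the 382 that were at least 2-fold lower (2.09%).

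**Figure D2:**
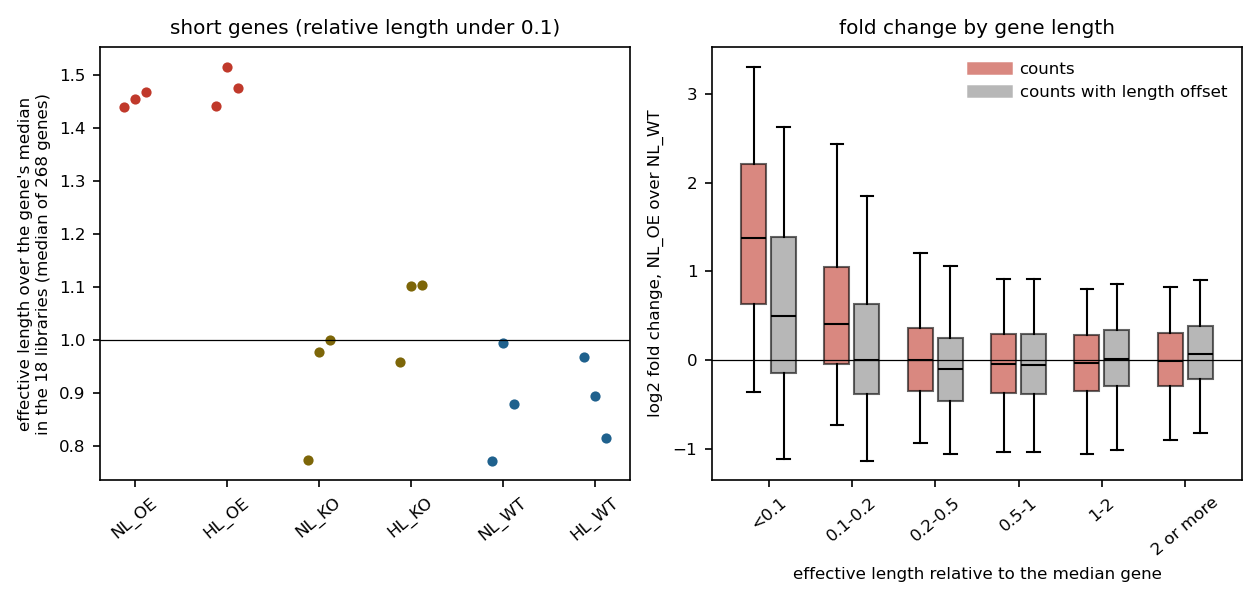
Short genes and the contrast: relative effective length of short genes in each of the 18 libraries by group, and the log2 fold change of NL_OE over NL_WT by class of relative length, from counts (red) and with the length offset (grey). Boxes span the middle 50% of genes with the median as a line, and whiskers the 5th to 95th percentile. The 6 OE-labelled libraries lie at 1.44 to 1.52 and the other 12 at 0.772 to 1.10, and the shortest class has a median log2 fold change of 1.37.

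With each library's effective lengths as an offset in the same edgeR fit, an alternative chosen after seeing the data, the median of the shortest class was 0.49, with 71 called higher and 12 lower. For the class from 0.1 to 0.2 it was 0.0011. The fit with the offset called 2135 genes in all, 1098 higher and 1037 lower, of which 1934 were among the 2215. At least 2-fold changes numbered 405 higher and 396 lower in that fit. The strain and the larger effective lengths cannot be told apart here, since all 6 OE-labelled libraries share both.

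The 10 largest rises named by the rule (called, at least 10 CPM in the higher group, no overlap) held 7 short genes. The first, NO10G03460, had 686, 548 and 565 counts in NL_OE, against 0 counts in each NL_WT library. Taking 3 counts in each NL_WT library as the floor, which covers counting error only, it was at least 183-fold higher in NL_OE. It had 296 to 613 counts in the HL_OE libraries, 0 in all 3 NL_KO libraries and 0 in HL_WT, so it was counted in the OE-labelled strain at both light levels. No other ID had counts within 5% of its own in all libraries. The other 6 short genes were NO03G01740, NO24G02050, NO03G05230, NO18G01230, NO02G05660 and NO01G03860. NO24G02050 had 10.2, 10.6 and 10.9 CPM in NL_OE, against 0.759, 1.18 and 1.23 CPM in NL_WT, a log2 fold change of 3.31 (SE 0.62, adjusted p = 0.00178, edgeR). NO02G05660 had 19.3, 25.2 and 21.5 CPM in NL_OE, against 2.28, 3.67 and 2.98 CPM in NL_WT, a log2 fold change of 2.88 (SE 0.31, adjusted p = 2.64e-05, edgeR). Both groups were tight and far apart. With the length offset these 6 genes kept log2 fold changes between 1.87 (NO02G05660) and 2.68 (NO03G05230), and all 6 were still called. Of the 6, NO24G02050 was not called by limma on log2 TPM.

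The 3 genes of usual length among the 10 largest rises were NO20G02140, NO13G01090 and NO18G02490. NO20G02140 had 157, 166 and 143 CPM in NL_OE, against 14.8, 20.4 and 14.3 CPM in NL_WT. It was far above every WT library, with a log2 fold change of 3.24 (SE 0.32, adjusted p = 1.49e-05, edgeR), and NL_KO, at 19.9 ± 0.480 CPM (SD, n = 3), lay close to WT. NO13G01090 had 43.2, 47.6 and 44.0 CPM in NL_OE, against 5.11, 4.61 and 4.68 CPM in NL_WT, a log2 fold change of 3.23 (SE 0.28, adjusted p = 4.76e-06, edgeR). For this gene the NL_KO libraries, at 52.7 ± 5.21 CPM, were as high as NL_OE, so WT was the low group of the 3 strains. NO18G02490 had 15.9, 16.9 and 15.8 CPM in NL_OE, against 1.03, 2.18 and 2.16 CPM in NL_WT, a log2 fold change of 3.16 (SE 0.35, adjusted p = 3.13e-05, edgeR). Its NL_KO mean was 12.2 ± 3.15 CPM, again nearer to NL_OE than to WT.

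Since short genes took most of those places, the next 7 rises among genes of at least 0.2 of the median length were added after their values were seen. They were NO13G03220, NO07G03260, NO14G01410, NO06G02340, NO07G02270, NO26G01820 and NO15G01050. NO07G03260 had 137, 129 and 128 CPM in NL_OE, against 16.7, 22.2 and 22.1 CPM in NL_WT, a log2 fold change of 2.69 (SE 0.26, adjusted p = 8.87e-06, edgeR). NO06G02340 had 149, 149 and 154 CPM in NL_OE, against 22.9, 26.5 and 24.6 CPM in NL_WT, a log2 fold change of 2.61 (SE 0.17, adjusted p = 3.33e-07, edgeR). In both genes the NL_OE libraries were close to each other and far from WT, and NL_KO, at 27.3 ± 7.64 and 30.1 ± 2.57 CPM, was near WT. NO26G01820 was less even, with 18.6, 42.0 and 19.8 CPM in NL_OE, against 6.90, 4.05 and 3.68 CPM in NL_WT. The log2 fold changes of the 7 lay between 2.40 (NO15G01050) and 2.72 (NO13G03220), and only that of NO13G03220 lost its call in any setting, without NL_WT replicate 2 (adjusted p = 0.0533, edgeR).

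**Figure D3:**
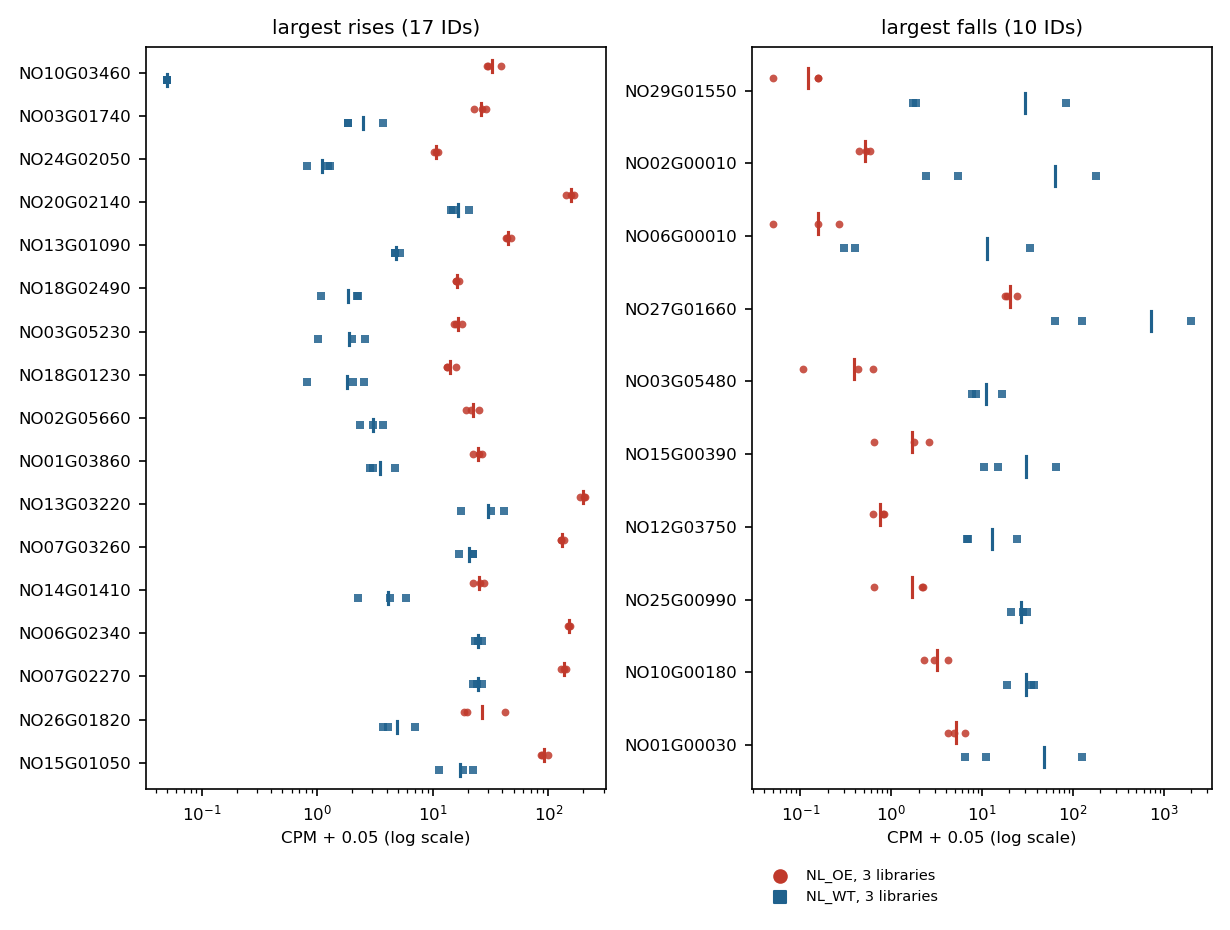
CPM of named nuclear genes in each NL_OE library and each NL_WT library (log axis, 0.05 added so that 0 can be drawn), rises on the left and falls on the right, with a tick at each group's mean. The 3 NL_OE points of nearly every rise lie close together and above NL_WT, and several falls have 1 NL_WT library far above the other 2.

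The smallest adjusted p-values belonged to rises of moderately abundant genes. NO04G00240 led with 201, 188 and 200.2 CPM in NL_OE, against 36.3, 45.6 and 41.1 CPM in NL_WT, a log2 fold change of 2.26 (SE 0.14, adjusted p = 1.73e-07, edgeR). The next were NO06G02340, NO10G02730 (1.28, SE 0.10), NO13G00850 (1.94, SE 0.16) and NO06G02780 (1.36, SE 0.12). All 5 were also called higher at high light, and NL_KO lay nearer to NL_WT than to NL_OE in each, for example at 49.0 ± 1.61 CPM for NO10G02730, where NL_OE had 121 ± 5.37 and NL_WT 50.0 ± 1.75 CPM (SD, n = 3 each). None of the 5 lost its call in any alternative setting.

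The largest falls differed in how much of the WT level came from 1 library. In 5 of the 10, NO29G01550, NO02G00010, NO06G00010, NO27G01660 and NO01G00030, NL_WT replicate 1 held 87.7% to 98.2% of the summed CPM of the 3 WT libraries. NO29G01550, the largest fall, had 0, 2 and 2 counts in NL_OE, against 1229, 27 and 31 counts in NL_WT. It was below every WT library, but its log2 fold change of -8.52 (SE 1.99, adjusted p = 0.00702, edgeR) became -4.46 without NL_WT replicate 1 and was not called (adjusted p = 0.0853, edgeR). NO06G00010 had 0, 4 and 2 counts in NL_OE, against 484, 4 and 6 counts in NL_WT, so that 2 of the WT libraries were close to the level of NL_OE. Its log2 fold change was -6.60 with all libraries and -1.41 without NL_WT replicate 1 (adjusted p = 0.530, edgeR). NO01G00030 had 6.40, 4.81 and 4.22 CPM in NL_OE, against 125, 11.0 and 6.49 CPM in NL_WT, and its log2 fold change of -3.21 became -0.77 without that library (adjusted p = 0.315, edgeR). NO02G00010 alone among these 5 stayed called without it, at -3.02 (adjusted p = 0.0241, edgeR) against -7.04 with it. Its counts were 7, 10 and 9 in NL_OE, against 2630, 87 and 40 in NL_WT.

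In the other 5, NO15G00390, NO12G03750, NO03G05480, NO10G00180 and NO25G00990, that share was 35.4% to 72.0%, and all 5 stayed called without NL_WT replicate 1. NO03G05480 had 1, 7 and 11 counts in NL_OE, against 237, 123 and 147 counts in NL_WT, a log2 fold change of -4.96 (SE 0.58, adjusted p = 5.01e-05, edgeR). Its NL_KO libraries, at 1.64 ± 0.278 CPM, lay between NL_OE at 0.339 ± 0.264 CPM and NL_WT at 10.9 ± 4.77 CPM (SD, n = 3 each). NO25G00990 had 2.15, 0.595 and 2.22 CPM in NL_OE, against 28.3, 20.7 and 31.0 CPM in NL_WT, a log2 fold change of -4.00 (SE 0.51, adjusted p = 0.000105, edgeR). NO10G00180 had 2.95, 2.27 and 4.17 CPM in NL_OE, against 34.5, 37.6 and 18.6 CPM in NL_WT, a log2 fold change of -3.27 (SE 0.44, adjusted p = 0.000160, edgeR). In both, NL_KO was at the WT level, at 22.7 ± 1.77 and 27.9 ± 8.63 CPM. NO15G00390, with the 72.0%, had a log2 fold change of -4.20 (SE 0.79) with all libraries and -2.95 without NL_WT replicate 1 (adjusted p = 0.0101, edgeR). NO12G03750, with 63.9%, had -4.15 (SE 0.62) and -3.28 (adjusted p = 0.00180, edgeR). Both were called in every alternative setting in which they were tested.

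A few IDs were counted in one group only. With 0 counts in all NL_WT libraries and at least 10 in each NL_OE library there were 4 IDs, and the reverse pattern had 0. Beside NO10G03460 these were NO18G01590 with 85, 38 and 78 counts in NL_OE, at least 20.5-fold higher than the floor, NO04G03960 with 26 counts in each NL_OE library, at least 7.91-fold higher, and NO21G02550 with 17, 26 and 11 counts, at least 5.48-fold higher. NO10G03460, NO18G01590 and NO04G03960 are short genes, at 0.107, 0.050 and 0.034 of the median length. Short genes were higher in NL_OE in general, with medians of 1.37 under 0.1 and 0.41 from 0.1 to 0.2. NO18G01590 was also at 80 to 85 counts in the HL_OE libraries and at 0 in all NL_KO and HL_WT libraries, and its call was lost on leaving out any 1 of the 6 libraries. NO04G03960 and NO21G02550 had a few counts in those groups, 3 and 1 over the NL_KO libraries and 7 and 4 over the HL_WT libraries. At any count above 0, 87 IDs were seen in NL_OE and not in NL_WT, and 42 in NL_WT and not in NL_OE, in libraries that were somewhat deeper in NL_OE.

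Called genes were spread over the ID series, with 16.7% (NO09) to 29.5% (NO25) of tested IDs called in each. Runs of at least 4 tested neighbours called in the same direction numbered 6 and held 25 IDs, 16 higher and 9 lower. The longest was NO19G00060 to NO19G00100, whose 5 IDs were all lower, by -1.47 to -2.36 on the log2 scale. Its first ID had 835, 654 and 646 CPM in NL_OE, against 2688, 1914 and 1389 CPM in NL_WT (log2 fold change -1.49, SE 0.36, adjusted p = 0.00867, edgeR). Its last ID had 259, 177 and 183 CPM in NL_OE, against 1452, 947 and 782 CPM in NL_WT (-2.36, SE 0.41, adjusted p = 0.000985, edgeR). Both were far apart in the groups, and in NL_KO both were at WT levels, at 2075 ± 576 and 1124 ± 297 CPM (SD, n = 3). The other run of falls, NO08G02060 to NO08G02090, had a median log2 fold change of -0.76, and its outer IDs lost their calls without single libraries, NL_WT replicate 1 among them. Runs of rises were NO04G01900 to NO04G01930 (median 0.77), NO09G03090 to NO09G03120 (0.88), NO14G02530 to NO14G02560 (1.04) and NO18G00630 to NO18G00660 (1.90). Several of their outer IDs were not stable. NO09G03090 lost its call in 8 settings, RLE scaling and the replicate block among them, and NO14G02530 in 6. NO14G02560, a short gene, lost it in 9, and with the length offset its adjusted p was 0.0751 (edgeR), so that this run of 4 was not kept there. All 3 also lost their calls without NL_WT replicate 1. NO09G03110, named above for its gain in TPM, lies in the second of these. Among the first and last 5 IDs of the series, 265 were tested, 20 called higher (7.55%, beside 11.4% of all tested genes) and 32 lower (12.1%, beside 10.9%), with a median log2 fold change of 0.020. Of the 10 largest falls, 3 (NO02G00010, NO06G00010 and NO01G00030) are such end IDs, beside 265 of the 9858 tested nuclear genes. All 3 are among the 5 with most of their WT level in NL_WT replicate 1.

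Organelle transcripts were scarce, and most had negative fold changes that were not called. Plastid and mitochondrial transcripts carry no long poly(A) tails as a rule, so the selection of polyadenylated RNA keeps few of them, and of the 160 organelle genes 112 had fewer than 10 counts in every one of the 6 libraries. The 54 tested ones passed a filter over all 18 libraries, which a gene could pass through the groups where it was high. Of these 54, 0 were called higher and 8 lower (14.8%, beside 10.9% of all tested genes), 52 had negative fold changes, and the median log2 fold change was -1.46, against -0.00070 over the nuclear genes. An unadjusted p below 0.05 was found for 17 (edgeR), all of them lower. The same share over all tested genes is not given here, and 22.3% of them were called even after adjustment. The 17 therefore cannot be read as more than the general share. In 30 of the 54 the groups did not overlap, each time with NL_OE lower, a share (55.6%) below the 62.9% of all tested genes. In RNA from a whole culture, fewer cells with a transcript and fewer copies per cell cannot be told apart.

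Sums over all 160 genes do not depend on the filter. All organelle genes together took 65.5, 46.4 and 138 CPM of the library total in NL_OE, against 161, 116 and 95.8 in NL_WT. These sums overlapped (two-sided exact permutation test, p = 0.3, and 0.5 after adjustment). The mitochondrial genes together took 14.7, 12.3 and 14.9 CPM of the library total in NL_OE, against 35.5, 32.4 and 23.1 in NL_WT, with no overlap (two-sided exact permutation test, p = 0.1, which is the smallest possible here, and 0.25 after adjustment over 5 such tests). The plastid genes together took 69.4 ± 47.5 in NL_OE and 93.9 ± 27.97 in NL_WT (SD, n = 3 each; exact permutation p = 0.5), and here psbA decided the spread. psbA, which encodes the D1 protein of photosystem II, had 22.8, 15.5 and 86.0 CPM in NL_OE, against 40.1, 35.8 and 27.3 CPM in NL_WT, so that NL_OE replicate 3 was above all the others and the remaining NL_OE libraries below them. Its log2 fold change of 0.27 (SE 0.60, adjusted p = 0.791, edgeR) turned to -0.85 without NL_OE replicate 3. The other plastid genes together took 27.4, 18.1 and 33.6 in NL_OE, against 89.5, 47.8 and 44.1 in NL_WT (exact permutation p = 0.1, adjusted 0.25).

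Of the plastid genes for photosynthesis none were called, although nearly all tested members were below WT in the mean. The 2 tested photosystem I genes, psaA and psaB, had log2 fold changes of -1.17 and -0.75, and the photosystem II genes psbB, psbC and psbD had -0.87 to -1.21. psaA, a reaction centre subunit, had 1.76, 1.03 and 3.22 CPM in NL_OE, against 7.24, 3.74 and 2.57 CPM in NL_WT, which overlap. rbcL, the large subunit of the carbon-fixing enzyme Rubisco, had 2.95, 1.73 and 4.49 CPM in NL_OE, against 8.55, 2.99 and 2.98 CPM in NL_WT (-0.66 on the log2 scale, SE 0.61, adjusted p = 0.473, edgeR), and the value was 0.031 without NL_WT replicate 1. The 4 genes of the plastid ATP synthase had a median of -1.77 and the 2 of the cytochrome b6f complex a median of -0.996, with 0 called in each. petB of that complex, cytochrome b6, had -0.81 (adjusted p = 0.601, edgeR), and the sign turned to 0.47 without NL_WT replicate 1.

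Of the 36 tested plastid genes 4 were called lower (11.1%, beside 10.9% of all tested genes), which is near the general share. These 4 belong to gene expression, protein transport and chlorophyll synthesis, and all 4 calls were lost without NL_WT replicate 1. tufA, the translation elongation factor Tu, was the best counted, with 28, 31 and 18 counts in NL_OE, against 140, 100 and 89 counts in NL_WT. It was lower in each NL_OE library than in any WT library, with a log2 fold change of -2.32 (SE 0.64, adjusted p = 0.0165, edgeR). The ribosomal protein gene rps10, its neighbour in the plastid gene order, had 0, 4 and 0 counts in NL_OE, against 16, 4 and 11 counts in NL_WT (-3.06, SE 1.00, adjusted p = 0.0389, edgeR). secA, the ATPase of a protein translocase, had 1, 3 and 5 counts in NL_OE, against 34, 13 and 19 counts in NL_WT (-3.06, SE 0.94, adjusted p = 0.0299, edgeR). chlN, a subunit of the light-independent protochlorophyllide reductase, had 0, 1 and 1 counts in NL_OE, against 15, 11 and 9 counts in NL_WT (-4.10, SE 1.19, adjusted p = 0.0223, edgeR), and chlL of the same enzyme was not called (-1.85, SE 1.23, adjusted p = 0.305, edgeR). Of the 43 plastid ribosomal protein genes 6 were tested and 1 called. The 2 tested RNA polymerase genes, rpoA and rpoC2, had -2.22 and -3.19 and were not called, nor were the 5 chaperone and protease genes, whose best counted member dnaK had 54, 36 and 49 counts in NL_OE, against 182, 88 and 103 counts in NL_WT (-1.66, SE 0.61, adjusted p = 0.0617, edgeR).

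In the mitochondrion all 18 tested genes had negative fold changes, and 4 were called (22.2%, beside 10.9% of all tested genes called lower). These 4 are genes of oxidative phosphorylation, as are most of the 18 tested. atp6, a membrane subunit of the ATP synthase, had 4, 2 and 7 counts in NL_OE, against 23, 37 and 15 counts in NL_WT (log2 fold change -2.71, SE 0.54, adjusted p = 0.00262, edgeR). It was the only called organelle gene that kept its call in every setting in which it was tested. Its neighbour nad2, a subunit of complex I, had 2, 0 and 5 counts in NL_OE, against 35, 33 and 10 counts in NL_WT (-3.65, SE 0.98, adjusted p = 0.0149, edgeR). cob, cytochrome b of complex III, had 11, 12 and 10 counts in NL_OE, against 44, 42 and 23 counts in NL_WT (-1.94, SE 0.54, adjusted p = 0.0171, edgeR). cox2, a subunit of complex IV, had 9, 10 and 9 counts in NL_OE, against 32, 24 and 20 counts in NL_WT (-1.65, SE 0.49, adjusted p = 0.0252, edgeR). In all 4 the groups did not overlap, as in 2127 of the 2215 called genes. Without NL_WT replicate 1, atp6 alone of the 8 called organelle genes stayed called, at -2.71 (adjusted p = 0.00945, edgeR). The other 7 had log2 fold changes between -1.38 (cox2) and -3.81 (chlN) there, with adjusted p from 0.0586 (nad2) to 0.161 (rps10) by edgeR. Better counted members of the same complexes had smaller fold changes, which were not called. cox1 of complex IV had 66, 53 and 70 counts in NL_OE, against 118, 136 and 95 counts in NL_WT (-1.10, SE 0.55, adjusted p = 0.164, edgeR). nad7 of complex I (-0.90, adjusted p = 0.242, edgeR) and atp1 of the ATP synthase (-0.53, adjusted p = 0.581, edgeR) were not called either. The 5 tested mitochondrial ribosomal protein genes had a median of -1.32 with 0 called. The number of organelle calls varied from 1 without NL_WT replicate 1 to 27 with limma voom. All were lower in NL_OE but for 1 gene, called higher by limma on log2(TPM + 1) with no filter, beside 10 lower.

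**Figure D4:**
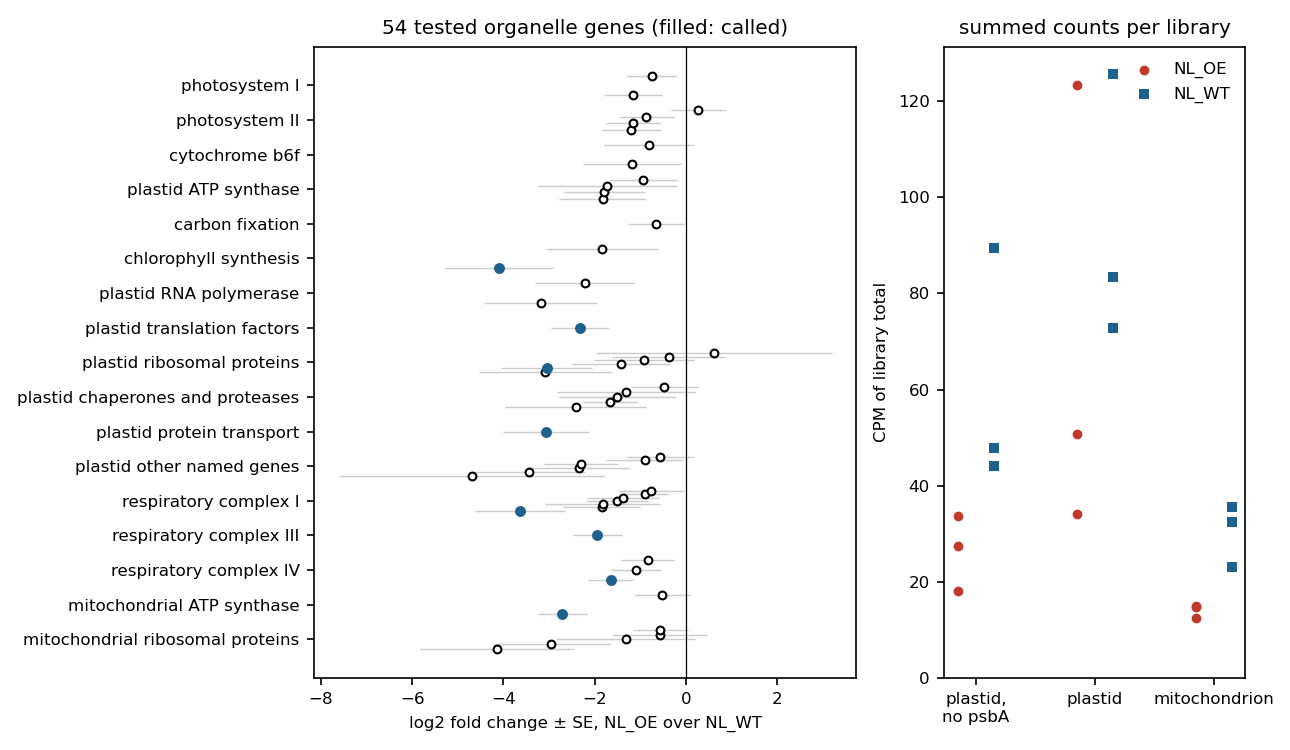
Log2 fold change of NL_OE over NL_WT with its SE for the tested plastid and mitochondrial genes, grouped by function, with the 8 called genes filled, and the summed organelle CPM of each library on the right. Of the 54 genes 52 lie below 0, and psbA and rps9 above it. The mitochondrial sums of the groups do not overlap.

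At high light, where no libraries are shared with this comparison, HL_OE against HL_WT gave 3184 calls (32.1%), and 1213 genes were called at both light levels in the same direction, which is 54.8% of the calls at normal light and 38.1% of those at high light. Opposite calls were made for 67 genes. The spread of each gene came from all 18 libraries in both contrasts, so the lists are not fully independent. The difference between the 2 contrasts was tested directly and called for 367 genes (3.70%), with 53 more positive at normal light (0.535%) and 314 more negative (3.17%). Of the 1085 genes lower in NL_OE, 171 were among the 367, and of the 1130 higher ones 27 were. The count of 367 was unstable: it was 2 without NL_OE replicate 2, 10 without NL_OE replicate 3, 21 without NL_WT replicate 2, 56 without NL_WT replicate 1, 217 without NL_OE replicate 1 and 609 without NL_WT replicate 3.

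Named genes of usual length show the kinds of difference. NO20G02140 was higher at both light levels, by 3.24 on the log2 scale at normal light and 4.79 at high light. Its difference between the lights was not called (-1.56, SE 0.43, adjusted p = 0.0570, edgeR). NO26G01820 was higher at normal light, with 26.8 ± 13.2 CPM in NL_OE and 4.88 ± 1.76 CPM in NL_WT (SD, n = 3 each). At high light it averaged 2.70 CPM in HL_OE and 3.09 CPM in HL_WT and was not called, and the difference of the log2 fold changes was 2.64 (SE 0.67, adjusted p = 0.0403, edgeR), a call lost in 5 of the 6 fits with 1 normal light library left out (2.16 to 2.98). NO02G05730 went the opposite way in the 2 lights, with 8.44, 9.73 and 9.77 CPM in NL_OE and 2.97, 3.99 and 4.15 CPM in NL_WT (1.33 on the log2 scale, SE 0.25, adjusted p = 0.00180, edgeR), and -0.90 at high light (adjusted p = 0.0108, edgeR). NO19G02180 had 1.76, 1.57 and 1.90 CPM in NL_OE, against 19.0, 12.8 and 3.33 CPM in NL_WT (-2.74, SE 0.55, adjusted p = 0.00283, edgeR), but was higher at high light, at 4.72 CPM in HL_OE and 1.39 CPM in HL_WT (1.76, adjusted p = 0.0245, edgeR). NO04G01800 had 19.5, 10.2 and 28.3 CPM in NL_OE, against 63.6, 79.3 and 46.1 CPM in NL_WT (-1.70, SE 0.43, adjusted p = 0.0104, edgeR), and 37.9 CPM in HL_OE and 10.4 CPM in HL_WT. Its call at normal light was lost without NL_OE replicate 2. By these means the WT level of both genes was lower at high than at normal light, and the OE-labelled level was not. The 268 shortest genes had a median log2 fold change of 1.37 at normal light and 1.39 at high light, and the difference between the lights was called for 2 of them (0.746%, beside 3.70% of all tested genes).

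**Figure D5:**
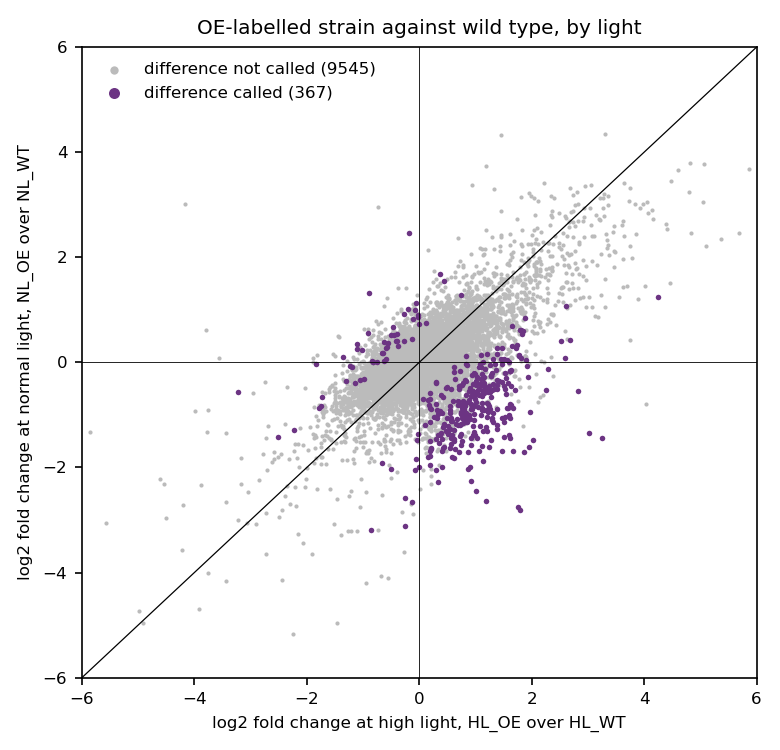
Log2 fold change of the OE-labelled strain over WT at high light (horizontal axis) and at normal light (vertical axis) for the tested genes, 12 of which lie outside the axes, with the 367 genes whose difference was called marked. Most of the marked genes, 314, lie on the side where the value is more negative at normal light.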

How the data were processed

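Polyadenylated RNA was sequenced as paired reads of 150 bases, per the labels' protocols. The authors deposited expected counts (estimated read counts per gene, not normalized, of which at least 96.3% were whole numbers in each library) and TPM values (scaled for length and library total). The tools named are Trim Galore, Picard, Salmon and STAR, per the submitters' processing notes, in no stated order. Tool versions and genome build: not given in the sources used here. Organelle symbols were those of the files, and all 160 matched the reference table.

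Expected counts were rounded and tested with edgeR 4.0.16 (R 4.3.3): TMM scaling, filterByExpr, 18 libraries in 6 groups of 3, quasi-likelihood F test with robust estimation and Benjamini-Hochberg adjustment, called at an adjusted p below 0.05. SE is the log2 fold change divided by the root of F. Single values had two-sided exact permutation tests. Named genes were NO07G02030; the 10 largest called rises and 10 largest falls with at least 10 CPM in the higher group and no overlap; the 5 largest gains and 5 largest losses in TPM; the 5 smallest adjusted p-values; called organelle genes and the most abundant member per organelle list; IDs at 0 in 1 group; ends of runs; the 3 largest and 3 smallest called differences between lights; and called neighbours of NO07G02030. Members, lists and tests were chosen with earlier results of these data known. Relative effective length was counts over TPM, scaled to the median gene, and 55 tested genes had too few counts for it. Alternatives were RLE scaling, DESeq2 1.42.0, limma 3.58.1 (voom, and log2 TPM with pseudocounts 1 and 0.1), other filters, fewer libraries, a replicate block and libraries left out in turn. The script was checked on simulated data in which each gene had the same spread in every group, unlike these libraries. There 52% of 2-fold and 97% of 4-fold changes were recovered, and 5.7% of the calls were false.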

Additional observations from a re-analysis of the deposited data

Results flagged for a closer look

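The contrast of the OE-labelled strain with WT differed between normal and high light, by the test of the difference itself, in 367 genes, and among the named genes in 7. The difference of the log2 fold changes, normal minus high light, was 2.66 for NO06G03960, 2.64 for NO26G01820, 2.23 for NO02G05730 and 0.54 for NO10G02730. It was -4.51 for NO19G02180, -4.37 for NO15G02830 and -3.57 for NO04G01800. NO06G03960 was not called at normal light, with 7.59, 8.05 and 7.60 CPM in NL_OE and 10.9, 7.78 and 15.7 CPM in NL_WT (log2 fold change -0.56, adjusted p = 0.280, edgeR), and was lower at high light, at 3.16 CPM in HL_OE and 29.6 CPM in HL_WT (-3.22, adjusted p = 3.81e-05, edgeR). NO15G02830 had 74.98, 40.2 and 93.3 CPM in NL_OE and 192, 191 and 147 CPM in NL_WT (-1.35, adjusted p = 0.0749, edgeR), and 90.2 CPM in HL_OE and 11.2 CPM in HL_WT (3.02, adjusted p = 0.00116, edgeR). The count of 367 fell to 2 without NL_OE replicate 2. With 1 of the 6 normal light libraries left out in turn, the 7 differences kept their sign, and each lost its call at least once: NO02G05730 and NO04G01800 without NL_OE replicate 2 alone, NO19G02180 and NO15G02830 without NL_OE replicates 2 or 3, NO06G03960 in 4 of the 6 fits, NO26G01820 in 5 and NO10G02730 in 6. Their adjusted p-values in those fits reached at most 0.140 (edgeR).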

How the results depend on the processing

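The 2215 calls became 5119 with only the 6 compared libraries (2122 of them shared with the 2215), 3922 with the 12 OE-labelled and WT libraries, 5217 with limma voom and group weights, and 1082 to 2143 with 1 library left out. Other settings gave 1843 (replicate block) to 2933 (the 9 normal light libraries). Rises were 51.0% of calls, 59.9% with limma on log2(TPM + 1) and 41.2% with the 12 libraries. The 8 organelle calls became 13 with DESeq2, 13 with the 6 libraries, 13 with the 12 libraries, 27 with voom, 14 on log2(TPM + 0.1), 1 with a filter at 5 CPM and 1 to 9 with 1 library left out. The 367 differences between lights became 789 with DESeq2, 924 with the 12 libraries, 849 with voom and 2 to 609 with 1 library left out. The 3184 high light calls became 4872 with the 12 libraries. The log2 fold change of psbA (cp-psbA in the files) changed sign, to -0.11 with voom, -0.086 on log2(TPM + 1) with and without a filter and -0.093 on log2(TPM + 0.1). With 1 library left out it ran from -0.85 (without NL_OE replicate 3) to 0.66 for psbA, from -1.46 to 0.47 (without NL_WT replicate 1) for petB and from -1.04 to 0.031 (without NL_WT replicate 1) for rbcL. Beyond the fewer libraries or genes in some settings, the cause was not tested. Of the 65 called named genes, 38 stayed called in all settings in which they were tested and 27 did not in at least 1. Same-numbered libraries deviated from their group means with correlations of 0.40, -0.12 and 0.21. With means of only 3 libraries, these values cannot decide whether the numbers pair the libraries. A call lost under the block by itself says nothing about the size of an effect. Counts under about 10 per library limit most organelle genes.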
